A study of Mus musculus with 32 samples.

Results

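The genes described here write, copy, read or remove repressive marks on DNA and histones: the Polycomb repressive complex 2 genes Ezh2, Suz12 and Eed, the DNA methyltransferases Dnmt1, Dnmt3a and Dnmt3b, their cofactors Uhrf1 and Hells, and the Tet1 and Tet2 dioxygenases. They were taken by symbol, 10 of the 18194 genes that had a probe set annotated to them alone, and each was read from its probe set with the highest mean. Expression had been measured in 32 lymphomas of Eµ-myc mice, 1 array per tumour. In this transgene the immunoglobulin heavy chain enhancer drives Myc in the B lineage, so every tumour carried it, and the labels give 1 group with no normal or untreated tissue. Tumours are called by their number in the labels, which do not give age or sex and do not say whether a given tumour was extracted as tissue or as cells. Levels are log2 values per probe set, so a difference of 1 is a doubling of signal, and no level is set against that of another gene. The tumours are separate samples, but the labels do not say that each came from its own mouse.

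As background, Ezh2 is the enzyme of Polycomb repressive complex 2, which methylates a lysine of histone H3 at silenced genes, and Suz12 and Eed are its obligate partners. Dnmt1 copies methylation to new DNA strands behind the replication fork, where Uhrf1 recruits it to hemimethylated sites, while Dnmt3a and Dnmt3b place new methylation. Hells, also known as Lsh, is a chromatin remodeller needed for methylation of repeats, and Tet1 and Tet2 oxidise methylcytosine, the first step of its removal. In the B lineage Ezh2 is known for its high level in dividing precursor and germinal centre cells, and Tet2 and Dnmt3a are recurrently mutated in blood cancers.

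A few tumours stood apart and recur in the results. Tumour 30 had by far the lowest S phase score, the mean standardised level of 22 DNA replication genes, at -3.37, against -0.91 in tumour 24, the next lowest, and it had high myeloid (1.97), stroma (1.97) and endothelial (2.14) scores. The T cell score peaked in tumour 24 (3.17) and tumour 2 (2.64), where the B lineage score was lowest (-1.50 and -1.25). Markers of B cells were nonetheless present throughout: Cd79a ranged between 9.37 and 11.63, Cd79b between 11.11 and 12.63 and Pax5 between 7.16 and 9.04. Signal of salivary gland genes, led by Bpifa2, marked a cluster of 11 tumours.

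The promoters of 5 of the 10 genes held an E2F-type motif. The windows shown are those of the 4 that were also called along the S phase score below. They were picked by that result, so their overlap with the motif is not a test. The S phase calls of Ezh2 and Hells ended without tumour 30. Sequences are from RefSeq, build GRCm38.p6, and run 5′ to 3′ on the gene's strand over 300 bases, 250 before the start of transcription and 50 after it. All 10 genes had an entry, some with up to 3 start sites. Capitals mark the motif, which was any of TTTCCCGC, TTTGGCGC, TTTCGCGC and TTTGCCGC on either strand. The windows lie at chr6:47594981-47595280 on the minus strand for Ezh2, at chr9:20952574-20952873 on the minus strand for Dnmt1, at chr17:56304063-56304362 on the plus strand for Uhrf1 and at chr19:38930740-38931039 on the plus strand for Hells.
Ezh2: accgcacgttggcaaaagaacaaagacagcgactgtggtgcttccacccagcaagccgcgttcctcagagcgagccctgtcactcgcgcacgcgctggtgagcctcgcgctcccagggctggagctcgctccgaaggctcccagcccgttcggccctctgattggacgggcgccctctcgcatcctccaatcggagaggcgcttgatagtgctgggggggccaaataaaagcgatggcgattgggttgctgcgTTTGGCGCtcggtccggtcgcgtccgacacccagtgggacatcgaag
Dnmt1: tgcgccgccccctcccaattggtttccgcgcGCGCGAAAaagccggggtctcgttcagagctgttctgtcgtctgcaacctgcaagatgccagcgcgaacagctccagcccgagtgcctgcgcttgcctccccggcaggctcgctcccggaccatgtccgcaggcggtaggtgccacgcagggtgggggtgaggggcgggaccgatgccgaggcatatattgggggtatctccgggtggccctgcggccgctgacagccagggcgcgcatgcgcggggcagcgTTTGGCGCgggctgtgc
Uhrf1: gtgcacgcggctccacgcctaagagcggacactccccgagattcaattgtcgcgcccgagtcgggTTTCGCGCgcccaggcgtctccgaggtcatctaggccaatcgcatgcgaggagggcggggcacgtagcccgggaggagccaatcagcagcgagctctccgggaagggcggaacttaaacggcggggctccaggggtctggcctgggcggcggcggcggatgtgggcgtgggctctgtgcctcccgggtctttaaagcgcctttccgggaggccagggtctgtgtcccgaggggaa
Hells: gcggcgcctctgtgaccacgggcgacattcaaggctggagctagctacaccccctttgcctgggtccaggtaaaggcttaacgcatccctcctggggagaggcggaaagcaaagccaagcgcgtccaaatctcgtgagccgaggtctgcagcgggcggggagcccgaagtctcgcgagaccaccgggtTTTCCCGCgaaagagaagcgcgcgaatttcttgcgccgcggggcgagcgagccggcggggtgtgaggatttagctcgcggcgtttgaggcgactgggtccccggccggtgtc
Counted from the first base of the window, the match began at base 254 in Ezh2, just past the start site, at bases 32 and 284 in Dnmt1, at base 66 in Uhrf1 and at base 189 in Hells. The Dnmt1 match at base 32 lay on the opposite strand. The Dnmt1 window is that of 1 of its 3 listed start sites and the Uhrf1 window that of 1 of 2. Suz12 held the motif too, at base 32 of its window, and was not called along the S phase score. The r of its leading probe set with that score was 0.18, and its other probe sets lay between 0.0 and 0.42. The motif occurred in 2.26% of all 32851 promoters and in 4.76% of the 9116 tested genes with a promoter entry, and in 7 of 18 genes of the S phase list. CG dinucleotides numbered 31 in the Ezh2 window, 33 in those of Dnmt1 and Uhrf1 and 34 in that of Hells, against a median of 22 over tested genes with a promoter entry and 7 over all promoters. Over all windows of the 10 genes the count ran between 2, at another Dnmt1 start site, and 57 at Tet2, with 17 at each of Eed and Tet1. A match of letters does not show binding.

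The 10 genes differed widely in how much their level varied between tumours. Ezh2 and Tet2 spread 6.81-fold and 6.45-fold between the lowest and the highest tumour, whereas Suz12 and Eed, the partners of Ezh2, spread 1.54-fold and 1.74-fold. Of the 9 genes that passed the filter on dim probe sets, 7 had an SD above the median SD of the 11228 tested genes, 0.28. Among them Dnmt1 was only just above it, at percentile 50.1. Over the alternative runs this count was 5 to 7. Tet1 did not pass: all 4 of its probe sets were dim, and they did not vary together (r with the leading one between -0.02 and 0.09).

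**Figure D1:**
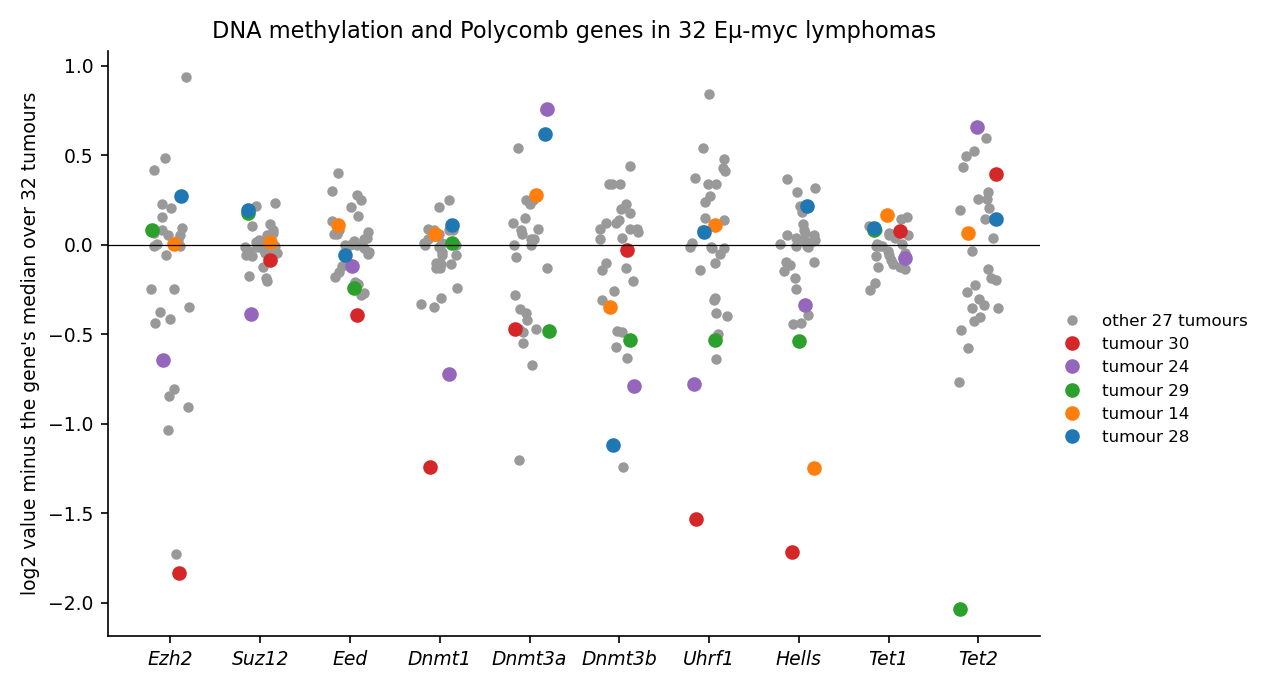
Log2 value of each gene minus its own median, 1 point per tumour (32 tumours, y axis in log2 units), with 5 tumours in colour. Tumour 30 is the lowest for Ezh2, Eed, Dnmt1, Uhrf1 and Hells and tumour 29 for Tet2, while Suz12 and Eed stay within 0.40 of their medians.

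Ezh2 had a lowest value of 9.45 in tumour 30, a median of 11.29 and a highest value of 12.22 in tumour 25 (SD 0.59). Its low values formed a tail: tumour 18, at 9.56, was nearly as low as tumour 30, and tumours 6, 16, 26 and 27 lay 0.80 to 1.03 below the median. Tumour 18 also had the lowest mitosis score, the mean standardised level of 19 mitotic genes, at -1.39, but an ordinary S phase score. Ezh2 has 1 probe set on the array, so its values could not be checked against another. Suz12, which holds the complex together, had a lowest value of 10.96 in tumour 24, a median of 11.34 and a highest value of 11.58 in tumour 23 (SD 0.13, at percentile 5.9 of the SDs of tested genes). Eed, which binds the mark that the complex writes, had a lowest value of 10.53 in tumour 30, a median of 10.92 and a highest value of 11.32 in tumour 2 (SD 0.18). The other 5 Suz12 probe sets followed the leading one with r between 0.51 and 0.82.

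Dnmt1 had a lowest value of 10.27 in tumour 30, then 10.79 in tumour 24, a median of 11.51 and a highest value of 11.76 in tumour 12 (SD 0.28). A robust estimate of its SD from the median absolute deviation, over all 32 tumours, was 0.12, so most tumours lay close to the median. Tumours 18, 9 and 6 were next, at -0.35, -0.33 and -0.3 from it. Uhrf1 had the same 2 tumours at the bottom, 10.02 in tumour 30 and 10.77 in tumour 24, with a median of 11.55 and a highest value of 12.39 in tumour 31 (SD 0.46). The same robust estimate was 0.45, close to the SD, so the spread ran through all tumours. Hells had lowest values of 8.78 in tumour 30 and 9.25 in tumour 14, a median of 10.50 and a highest value of 10.86 in tumour 18 (SD 0.42, robust estimate 0.20). The drop in tumour 30 was seen in every probe set of these genes: 3 of Dnmt1 (-1.17 to -1.37 against their medians), 2 of Uhrf1 (-1.53 and -1.67) and 3 of Hells (-1.17 to -1.71).

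Dnmt3a had a lowest value of 7.45 in tumour 22, a median of 8.65 and a highest value of 9.41 in tumour 24 (SD 0.44). All 5 of its probe sets were low in tumour 22, by 0.69 to 1.20, though their agreement over all tumours was loose (r with the leading one 0.42 to 0.82). Dnmt3b had low values of 7.79 in tumour 2 and 7.91 in tumour 28, a median of 9.03 and a highest value of 9.47 in tumour 20 (SD 0.42), and its 2 probe sets ran together (r = 0.94). Tumour 2 was also the second lowest for Dnmt3a, at 7.98. Over the 32 tumours r between the 2 enzymes was -0.09.

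Tet2 had a lowest value of 6.49 in tumour 29, far below the next lowest, 7.76 in tumour 17, with a median of 8.52 and a highest value of 9.18 in tumour 24 (SD 0.51). Its other probe set was lower still in tumour 29, at -3.12 log2 units from its median where the leading one was at -2.03, and the 2 ran together over all tumours (r = 0.95). Tet1 lay between 5.02 in tumour 25 and 5.44 in tumour 14 around a median of 5.27, under the filter's mean of 5.78, so its values give no order of tumours.

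The genes were next set against 7 measures of the tumours: the S phase and mitosis scores, the levels of Myc and Cdkn2a, the scores of precursor and mature B cell genes, and a score of T cell, myeloid and stroma genes, called the non-lymphoma score. A slope is the change in log2 level per SD of the measure, and a gene was called when limma's p, Benjamini-Hochberg adjusted over all tested genes, was under 0.05. There were 63 such relations, 9 genes by 7 measures. In bulk RNA, fewer cells of a type and less RNA per cell cannot be told apart.

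Along the S phase score 4 of the 9 genes rose, Dnmt1, Uhrf1, Hells and Ezh2, and 0 fell, where 24.9% of 11206 tested genes were called, 15.3% rose and 9.58% fell. Dnmt1 rose by 0.25 ± 0.03 per SD (SE, n = 32 tumours, limma adjusted p = 1.58e-07), with r = 0.89 and rho = 0.76, both at the smallest p that 100000 two-sided permutations can give (1e-05). Uhrf1 rose by 0.36 ± 0.05 (limma adjusted p = 1.13e-05, r = 0.78, permutation p = 1e-05, rho = 0.60, permutation p = 0.00028). Both relations kept an r of 0.66 for Dnmt1 and 0.56 for Uhrf1 without the 2 tumours farthest from the median score, 30 and 24. Hells rose by 0.28 ± 0.06 (limma adjusted p = 0.000431, r = 0.67, permutation p = 0.0021, rho = 0.37, permutation p = 0.0363). Ezh2 rose by 0.33 ± 0.09 (limma adjusted p = 0.00627, r = 0.55, permutation p = 0.00292, rho = 0.45, permutation p = 0.0106). Without those 2 tumours r was 0.24 for each of Hells and Ezh2, so the relations of both rest on them.

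Leaving out tumour 30 alone separated the 4 genes. Dnmt1 (slope 0.14, limma adjusted p = 0.00142) and Uhrf1 (0.23, adjusted p = 0.00467) were still called, and Hells (0.09, adjusted p = 0.28) and Ezh2 (0.15, adjusted p = 0.246) were not. Of the 11 tested myeloid markers 7 fell along the S phase score, as did 3 of 6 endothelial markers, 2 of 10 stroma markers and 0 of 5 T cell markers. With the non-lymphoma score as a covariate, and tumour 30 kept, the slopes were 0.22 for Dnmt1, 0.38 for Uhrf1, 0.29 for Hells and 0.33 for Ezh2, all still called (highest adjusted p 0.0188). For Hells and Ezh2 these slopes still depend on tumour 30. Suz12 (0.02 ± 0.02, interval -0.03 to 0.07) and Dnmt3b (0.08, interval -0.07 to 0.23) were not called. For Dnmt3a the slope was 0.12 with an adjusted p of 0.236, though the mean over its 5 probe sets was called (0.24, limma adjusted p = 0.0165). Tet2 had a negative slope of -0.17 that was not called (limma adjusted p = 0.141).

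**Figure D2:**
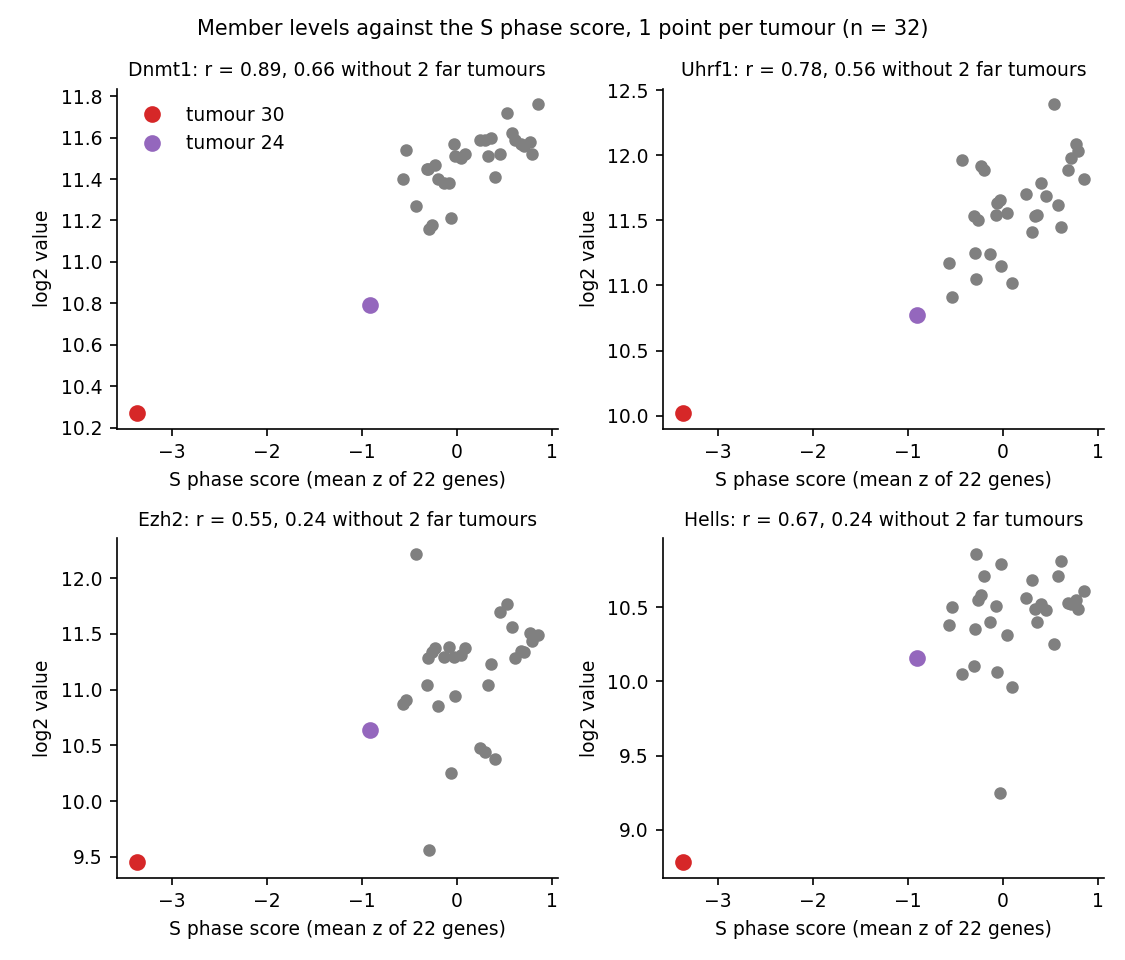
Log2 level of Dnmt1, Uhrf1, Ezh2 and Hells against the S phase score (mean standardised level of 22 replication genes), 1 point per tumour, 32 tumours. Dnmt1 and Uhrf1 keep a slope within the main cloud, with r of 0.66 and 0.56 without tumours 30 and 24, while for Ezh2 and Hells r is 0.24 there.

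Along the mitosis score 2 of the 9 genes rose, Dnmt1 (0.15 ± 0.04, limma adjusted p = 0.0169, r = 0.54, permutation p = 0.00096) and Uhrf1 (0.22 ± 0.07, limma adjusted p = 0.0338, r = 0.48, permutation p = 0.00498), where 16.6% of tested genes were called and 10.1% rose. The mitosis score itself ran with the S phase score (r = 0.40, permutation p = 0.0222, adjusted p = 0.0777 over 21 pairs of measures), and with the S phase score as a covariate 0 of the 9 were called. All 5 tested T cell markers and 4 of 11 myeloid markers fell along the mitosis score, and with the non-lymphoma score as a covariate both calls ended (Dnmt1 0.10, limma adjusted p = 0.252, and Uhrf1 0.21, adjusted p = 0.169). Without tumour 24 neither was called (Dnmt1 0.12, adjusted p = 0.073, and Uhrf1 0.19, adjusted p = 0.105). Uhrf1 alone also lost its call without tumour 2 (0.20, adjusted p = 0.0739), 18 (0.21, adjusted p = 0.0544) or 31 (0.18, adjusted p = 0.0778).

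Along Myc the called gene was Dnmt3b, which rose by 0.24 ± 0.06 per SD of the Myc level (limma adjusted p = 0.00602, n = 32, r = 0.58, permutation p = 0.00074, rho = 0.39, permutation p = 0.0265), 1 of 9 called where 20.1% of tested genes were and 10.4% rose. Myc itself lay between 9.81 in tumour 2 and 12.30 in tumour 7, with a median of 11.34. Tumour 2, lowest for both Myc and Dnmt3b and rich in T cell signal, carried the call: without it the slope was 0.16 (limma adjusted p = 0.0917). With the non-lymphoma score as a covariate, and tumour 2 kept, it was 0.30 (limma adjusted p = 0.017). Both Dnmt3b probe sets followed Myc (r of 0.58 and 0.61). All 5 tested T cell markers fell along Myc. Eed was not called (0.03, limma adjusted p = 0.642), with r = 0.14 (permutation p = 0.452) and rho = 0.37 (permutation p = 0.0367), and without the 2 tumours farthest in Myc r was 0.51, against 0.42 for Dnmt3b. The 8 genes not called had slopes between -0.10 and 0.05, and of them Suz12 had 5 further probe sets with r between 0.22 and 0.56 to Myc.

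Along the mature B cell score, the mean of 12 genes such as those of MHC class II, Tet2 rose and Dnmt3b fell. This was 2 of 9 called, where 9.25% of tested genes were, 4.34% rising and 4.91% falling. Tet2 rose by 0.29 ± 0.08 (limma adjusted p = 0.0154, r = 0.56, permutation p = 0.00121, rho = 0.58, permutation p = 0.00066), and r was 0.53 without the 2 farthest tumours. Dnmt3b fell with a slope of -0.22 ± 0.06 (limma adjusted p = 0.0228, r = -0.54, permutation p = 0.00147, rho = -0.54, permutation p = 0.00175), and r was -0.43 without the 2 farthest. Tumour 24 had the highest mature B cell score, 1.82, together with the highest T cell score and the highest Tet2, and without it neither gene was called (Tet2 0.26, adjusted p = 0.0612, and Dnmt3b -0.19, adjusted p = 0.101). Dnmt3b was also not called without tumour 2 (-0.18, adjusted p = 0.0723) or tumour 20 (-0.20, adjusted p = 0.0507). Without tumours 24 and 2 together, the pair richest in T cell signal, Tet2 was called (0.30, limma adjusted p = 0.031) and Dnmt3b was not (-0.13, adjusted p = 0.303). With the non-lymphoma score as a covariate, and tumour 24 kept, both were called (Tet2 0.29, limma adjusted p = 0.0199, and Dnmt3b -0.22, adjusted p = 0.0315). Of the 5 tested T cell markers 4 rose along the mature B cell score. Without the 11 tumours with salivary signal Tet2 was not called (0.20, limma adjusted p = 0.0579), while Dnmt3b (-0.26, adjusted p = 0.0397), Uhrf1 (-0.27, adjusted p = 0.0113) and Dnmt1 (-0.12, adjusted p = 0.0314) fell.

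Suz12 and Dnmt1 fell along the non-lymphoma score, 2 of 9 genes, where 26.5% of tested genes were called and 13.1% fell. Suz12 had a slope of -0.08 ± 0.02 (limma adjusted p = 0.00628, r = -0.61, permutation p = 0.00028, rho = -0.61, permutation p = 0.00036) and Dnmt1 one of -0.16 ± 0.04 (limma adjusted p = 0.00424, r = -0.58, permutation p = 0.00099, rho = -0.35, permutation p = 0.0519). Suz12 was not called without tumour 24 (-0.05, adjusted p = 0.0736), where Dnmt1 still was (-0.12, adjusted p = 0.0366). Without tumour 30 the Dnmt1 slope was -0.09, still called, and with the S phase score as a covariate it was -0.07 and not called (limma adjusted p = 0.0611). Without the 2 farthest tumours r was -0.46 for Suz12 and -0.22 for Dnmt1.

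The remaining measures gave no call. Along the precursor B cell score 0 of the 9 genes were called by limma, where 2.40% of tested genes were. Of the 9, 2 had an unadjusted limma p under 0.05, where 15.9% of tested genes did. These were Eed, with a slope of -0.08 (p = 0.0179), and Uhrf1, with one of 0.18 (p = 0.0194). Eed had r = -0.43 (permutation p = 0.0157) and rho = -0.5 (permutation p = 0.00364). Uhrf1 had r = 0.4 (permutation p = 0.0234) and rho = 0.36 (permutation p = 0.045). Cdkn2a encodes the tumour suppressors that Myc-driven lymphomas often lose or silence, and Polycomb is known to repress it. Its level lay between 3.79 in tumour 28 and 10.79 in tumour 7, with tumours 7, 14 and 23 in a high cluster that was left out. Over the other 29 tumours limma called 0.00% of 11227 genes, while 10.5% had an unadjusted p under 0.05, among them Hells alone of the 9 (0.15, p = 0.0395). For Ezh2 the Cdkn2a slope was -0.16 (interval -0.39 to 0.07). The median Cdkn2a level over all tumours was 5.96, close to the filter's mean of 5.78. Several tumours kept in the fit lay below that mean, such as tumours 30 (4.13), 15 (4.14) and 3 (4.15). Values that dim may not order tumours, so the lack of calls does not show that the genes are unrelated to Cdkn2a. A measure of RNA quality, the 3′ minus 5′ signal of Gapdh and Actb, lay between 0.26 and 0.96. By limma 0 of the 9 genes were called along it, where 1.16% of tested genes were, and 0 of the 9 had an unadjusted p under 0.05. By ranks, rho with it was -0.38 for Dnmt1 and -0.34 for Eed, given without a test, and the others lay between -0.08 and 0.26.

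**Figure D3:**
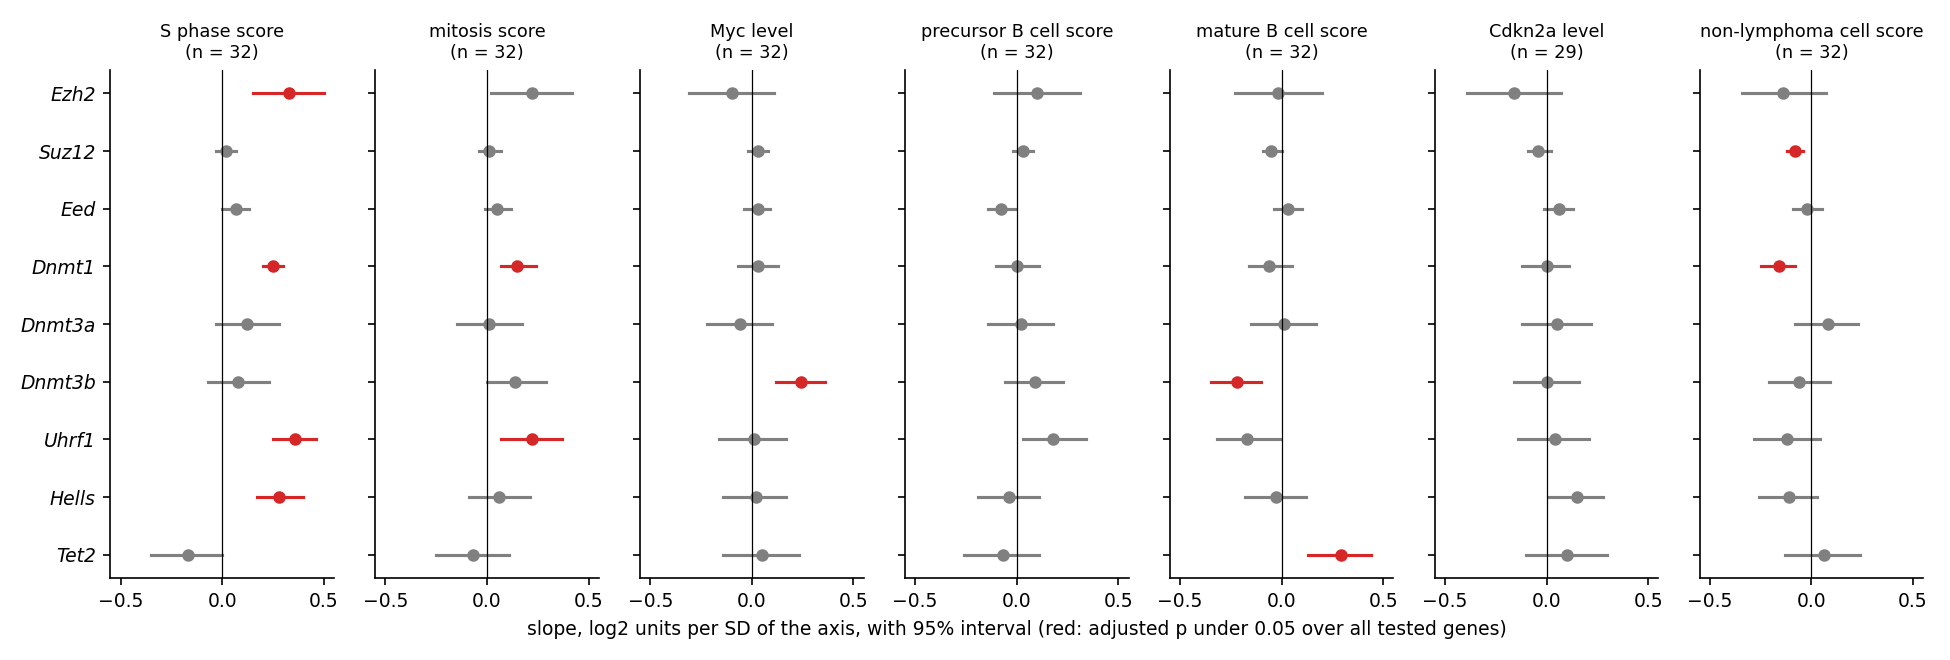
Slope of each of 9 genes along 7 measures, in log2 units per SD of the measure, with its 95% interval (n = 32 tumours, 29 for Cdkn2a). Red marks an adjusted p under 0.05 over all tested genes: 4 genes for the S phase score, 2 each for the mitosis, mature B cell and non-lymphoma scores, 1 for Myc and 0 for the others.

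Between themselves the genes formed a small connected set around Dnmt1. Of 36 pairs, 4 were called in both directions and all 4 were positive: Dnmt1 with Uhrf1, Ezh2 with Uhrf1, Ezh2 with Dnmt1, and Dnmt1 with Hells. Of all tested genes, 17.3% rose and 10.7% fell along Dnmt1, 9.41% rose and 4.23% fell along Uhrf1, 6.24% rose and 2.54% fell along Ezh2, and 3.71% rose and 1.47% fell along Hells. Fewer did along Dnmt3b (2.28% and 1.26%), Tet2 (1.55% and 1.79%), Suz12 (0.632% and 2.13%), Eed (0.0267% each way) and Dnmt3a (0.00% each way). Dnmt1 and Uhrf1 had r = 0.70 (permutation p = 9e-05, rho = 0.41, larger limma adjusted p = 0.00104). Ezh2 and Uhrf1 had r = 0.62 (permutation p = 0.00026, rho = 0.57, larger limma adjusted p = 0.00581). Ezh2 and Dnmt1 had r = 0.60 (permutation p = 0.00133, rho = 0.39, larger limma adjusted p = 0.00939). Dnmt1 and Hells had r = 0.57 (permutation p = 0.00868, rho = 0.30, larger limma adjusted p = 0.0233).

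These 4 pairs rest in large part on tumour 30, since 0 pairs were called in both directions without it. For Dnmt1 and Uhrf1, Uhrf1 was then still called along Dnmt1 (limma adjusted p = 0.0391) and Dnmt1 along Uhrf1 was not (adjusted p = 0.0814). Among the 3 core genes of Polycomb repressive complex 2, r was 0.03 for Ezh2 with Suz12, 0.03 for Ezh2 with Eed and -0.05 for Suz12 with Eed (permutation p of 0.85, 0.88 and 0.78). Suz12 and Eed varied little between tumours (SD 0.13 and 0.18). Such values leave little to correlate, so they do not show that the 3 genes are unlinked. Eed ran with Dnmt1 (r = 0.56, permutation p = 0.00059, rho = 0.52), called in 1 direction only (limma adjusted p of 0.0075 and 0.0634). Tet2 tended to be low where Uhrf1 was high by ranks (rho = -0.57, permutation p = 0.00096), but not by r (-0.30, permutation p = 0.0901, larger limma adjusted p = 0.342). Without the 2 tumours farthest from the Tet2 median r was -0.60.

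**Figure D4:**
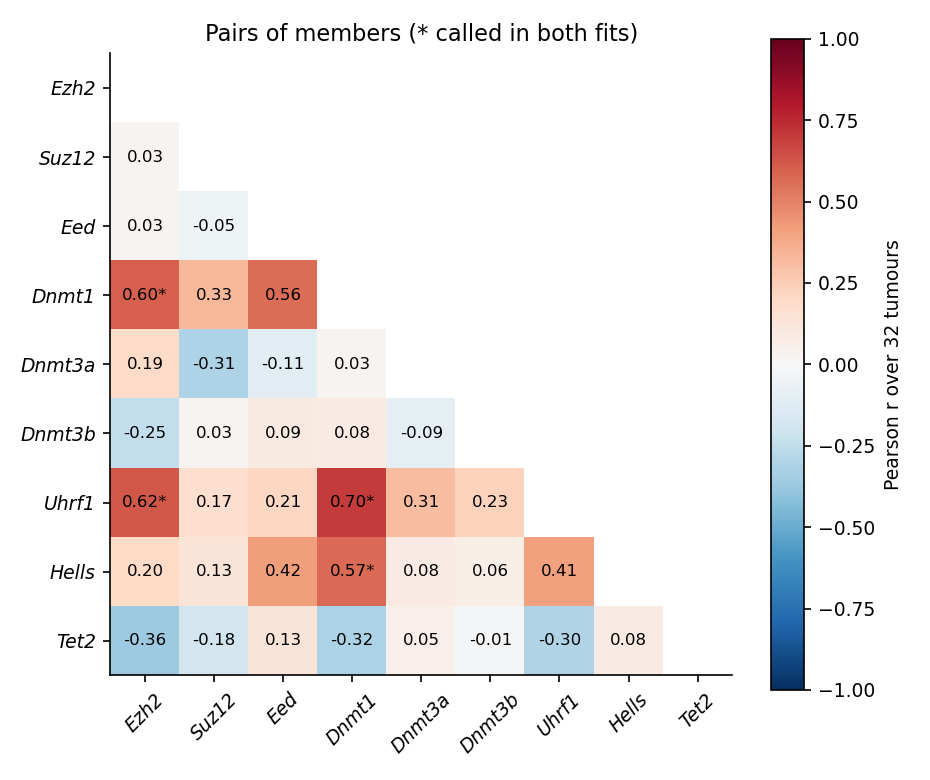
Pearson r over 32 tumours for each pair of the 9 tested genes, as a colour scale. The 4 called pairs link Dnmt1 with Uhrf1, Ezh2 and Hells and Ezh2 with Uhrf1 (r between 0.57 and 0.70), and the 3 pairs among Ezh2, Suz12 and Eed lie between -0.05 and 0.03.

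Each gene was then set against the mean of the other tested genes of its own chromosome, 9 relations in all. Tet2 followed chromosome 3 (539 other tested genes): it rose by 0.35 ± 0.07 per SD of the chromosome mean (limma adjusted p = 0.0131, n = 32, r = 0.69, permutation p = 1e-05, rho = 0.76). Of the 10689 tested genes that were not part of that mean, Tet2 among them, 0.898% were called along it. Without tumour 29 the slope was 0.27 (limma adjusted p = 0.00507). The call ended without the 11 tumours with salivary signal (0.25, limma adjusted p = 0.228) and, narrowly, without the 2 tumours farthest on the axis (0.35, adjusted p = 0.0505). Genes of chromosome 3 had a median r of 0.42 with the mean of their chromosome, and Tet2 lay at percentile 89.8 among them. With the chromosome mean as a covariate the slope of Tet2 along the mature B cell score was 0.19 (limma adjusted p = 0.0521).

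The other 8 genes were not called along their own chromosome, Dnmt3a in 28 tumours, without 4 (6, 16, 20 and 32) that formed a cluster of high chromosome 12 means. The share of tested genes outside the mean that were called along it was 3.21% for the chromosome of Ezh2, 2.16% for Suz12, 1.05% for Dnmt1, 0.164% for Eed, 0.0290% for Dnmt3b and 0.00924% for Hells. It was 0.00% by limma for the chromosomes of Uhrf1 and Dnmt3a, along which 837 and 442 genes had an unadjusted p under 0.05. Dnmt3b had r = 0.45 with chromosome 2 and Hells r = 0.43 with chromosome 19 (permutation p of 0.0129 and 0.0468, limma adjusted p of 0.341 and 0.73), and without the 2 tumours farthest on the axis r was 0.19 and 0.06. By ranks, rho was 0.25 for Dnmt3b and 0.11 for Hells (permutation p of 0.16 and 0.536). Suz12 instead had a negative r of -0.38 with its own chromosome (permutation p = 0.0305, limma adjusted p = 0.265). The rho of Suz12 was -0.45 (permutation p = 0.00989), and without the 2 tumours farthest on the axis its r was -0.3. In tumour 14 Hells was 1.24 below its median, and 9 of its 10 nearest tested genes were below theirs (median -0.61), as was chromosome 19 as a whole (median -0.57). In tumour 28 Dnmt3b was 1.12 below its median and all 10 neighbours were below theirs (median -0.48), and chromosome 2 as a whole was lower than in any other tumour (mean -0.19, the next lowest -0.05, median over its genes -0.10). In tumour 29 chromosome 3 also had its lowest mean of the 32 tumours (-0.20). Tet2 there lay at -2.03 from its median, with 7 of its 10 neighbours below theirs, at a median of -0.09 and none lower than -0.40. The neighbours of Dnmt3a in tumour 22 had a median of 0.02 from theirs, and those of Ezh2 in tumour 18 one of -0.02.

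**Figure D5:**
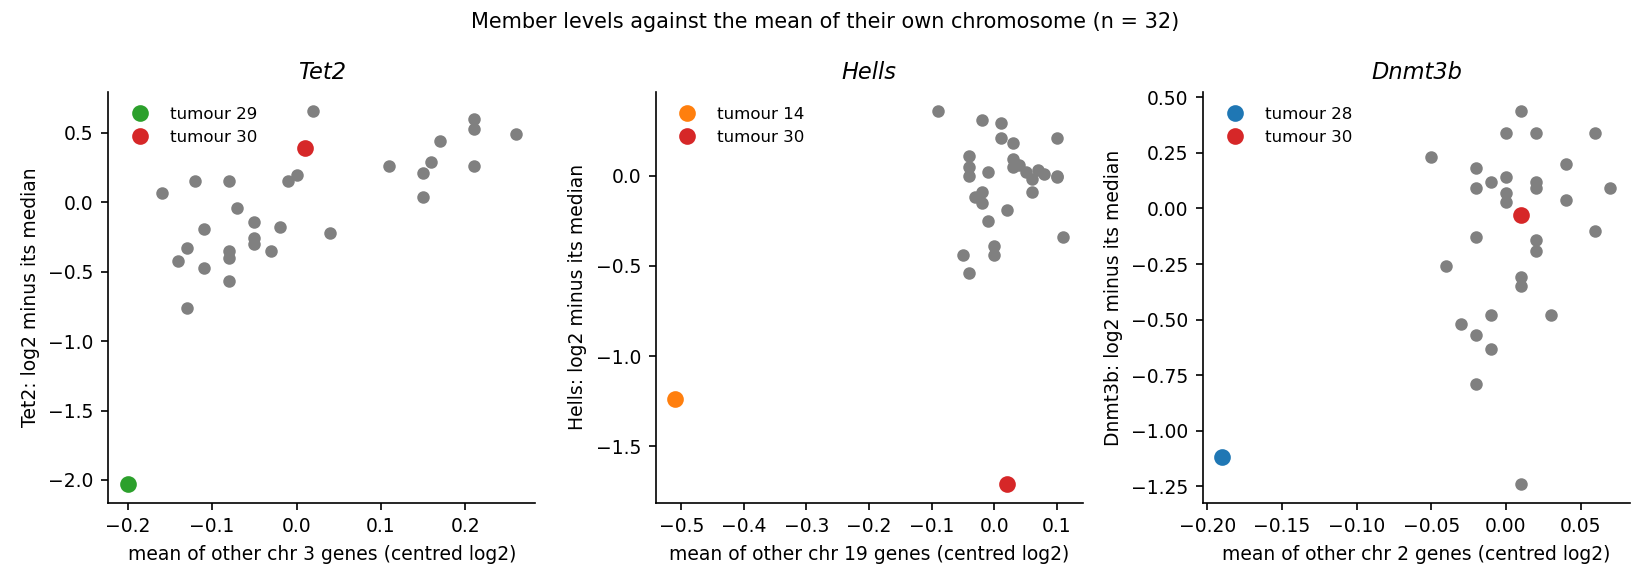
Level of Tet2, Hells and Dnmt3b minus the gene's median (y axis, log2 units) against the mean centred log2 value of the other tested genes of chromosomes 3, 19 and 2 (x axis), 1 point per tumour, 32 tumours. Tet2 rises along chromosome 3 (r = 0.69), and the Hells and Dnmt3b relations hang on tumours 14 and 28, in which the chromosome mean was lowest.

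The partners of these genes were read from lists along the same S phase score, where the median slope of all tested genes was 0.01, 15.3% rose and 9.58% fell. For the partners these fits were not repeated without tumour 30 or with the non-lymphoma score as a covariate. Of the 9 tested partners of Polycomb repressive complex 2, 0 rose and 0 fell (limma, median slope 0.02). Their SDs had a median of 0.23, and the most variable were Epop (SD 0.89) and Mtf2 (SD 0.42), both accessory subunits. Of the 19 tested subunits of Polycomb repressive complex 1, which reads the mark and ubiquitinates histone H2A, 4 rose and 1 fell (median slope 0.06, with 15.3% rising and 9.58% falling among all tested genes). The chromobox gene Cbx2 had the steepest rise (0.42 ± 0.07, limma adjusted p = 3.29e-05), followed by Pcgf6 (0.18, adjusted p = 0.0117), and Phc2 fell (-0.13, adjusted p = 0.0323). Along the non-lymphoma score Cbx2 fell (-0.28, limma adjusted p = 0.0146) and Phc2 rose (0.15, adjusted p = 0.0146). Of the 19 subunits 2 rose and 2 fell along it, where 26.5% of tested genes were called. Bcor (SD 0.67) and Pcgf5 (SD 0.62) varied most in that list.

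Of 11 tested genes that supply or assist DNA methylation, 3 rose and 1 fell along the S phase score (median slope 0.08), again where 15.3% of all tested genes rose and 9.58% fell. Idh2, a mitochondrial enzyme whose normal product is the Tet cofactor alpha-ketoglutarate, rose by 0.40 ± 0.12 (limma adjusted p = 0.0124), and its cytosolic relative Idh1 fell with a slope of -0.20 (adjusted p = 0.0331). Cdca7, which works with Hells, rose by 0.23 ± 0.04 (limma adjusted p = 0.000383). Along the non-lymphoma score Idh1 rose (0.34, limma adjusted p = 1.33e-05), Cdca7 fell (-0.22, adjusted p = 0.000694) and Idh2 was not called (-0.07, adjusted p = 0.741). Of the 11 genes 1 rose and 2 fell along it, where 26.5% of tested genes were called. Gadd45b (SD 1.0) varied most, then Idh2 (SD 0.79). Of 10 opponents of Polycomb, Smarcb1, a core subunit of the SWI/SNF remodeller, rose by 0.22 (limma adjusted p = 1.88e-05) and Asxl1, a subunit of the H2A deubiquitinase, fell (-0.20, adjusted p = 0.0157). Smarcb1 fell along the non-lymphoma score (-0.12, limma adjusted p = 0.0435) and Asxl1 was not called (0.04, adjusted p = 0.693). Of the 10 opponents 0 rose and 4 fell along it, where 26.5% of tested genes were called. Smarca4 (SD 0.47) and the demethylase gene Kdm6a (SD 0.42) were the most variable opponents. Of 7 genes of the methyl-CpG-binding families, Mbd3, a member that does not itself bind methylated DNA selectively in mammals, rose (0.17, limma adjusted p = 0.000319) and Zbtb4 fell (-0.23, adjusted p = 0.0208), with Mbd4 and Zbtb38 the most variable (SD 0.50 each). Mbd3 fell along the non-lymphoma score (-0.13, limma adjusted p = 0.0162) and Zbtb4 rose (0.25, adjusted p = 0.0091). Of the 7 genes 2 rose and 2 fell along it. Of 12 germline genes known to be silenced by DNA methylation, such as Dazl, Ddx4 and Sycp3, none passed the filter on dim probe sets.

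The genes whose levels ran closest to each member, by r over the 32 tumours and with no test, were led for Dnmt1 by Slbp (r = 0.91), Haus5 and Npat (0.90 each). Slbp and Npat act in making histone messages during S phase, and Haus5 is a subunit of the spindle complex augmin. Uhrf1 ran with Skp2, a ubiquitin ligase subunit of the cell cycle, Mcm7, a replicative helicase subunit that is in the S phase list, and Ttc33 (0.80 each). Ezh2 ran with Oip5os1 and the acetyltransferase gene Kat6a (0.80 each) and with the telomere gene Pot1a (0.78). Hells ran with Carnmt1 (0.84), Snrpa1 (0.81) and Eif1ad (0.81), and Carnmt1 and Eif1ad lie on chromosome 19 with it. By ranks, rho was 0.69 to 0.82 for the genes named with Dnmt1, 0.69 to 0.77 with Uhrf1 and 0.60 to 0.65 with Ezh2. With Hells it was 0.46 for Eif1ad and 0.87 for Carnmt1. The 99th percentile of r over tested genes was 0.75 for Dnmt1, 0.67 for Uhrf1, 0.65 for Ezh2 and 0.61 for Hells.

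Dnmt3b ran with Anapc1 (0.78), Mecr (0.75) and Kat14 (0.74), of which Anapc1 and Kat14 share chromosome 2 with it. Tet2 ran with B3gnt5 (0.87), the inhibitory lymphocyte receptor gene Btla (0.86) and Arid5b (0.85), none of them on chromosome 3. Suz12 ran with Sde2 (0.76), Cep44 (0.71) and the Argonaute gene Ago2 (0.70), and Eed with Brpf3 (0.72), Selenoi (0.68) and Mrpl1 (0.67). Dnmt3a had the weakest neighbours in level, Gnb2 (0.66), Egln1 (0.64) and Dis3l (0.63), and as an axis it called 0.00% of tested genes in limma, while 626 had an unadjusted p under 0.05.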

How the data were processed

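Total RNA of 32 lymphomas was hybridised to Affymetrix Mouse430_2 arrays, and the authors deposited 1 log2 value per probe set and array, for which the submitters' processing notes name RMA and affy without a version. RMA equalises the arrays (medians 5.72 to 5.80), so a change common to most genes would not show. Precision is limited by how many arrays there are.

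Of 45101 probe sets, 34958 had 1 gene symbol, 932 had several and 9211 had none. Probe sets with 1 symbol and a mean of at least 5.78, the median of all probe set means, were kept, and the one with the highest mean stood for its gene (11228 genes). Entrez identifiers of 34754 probe sets matched RefSeq GRCm38.p6, which gave chromosomes. Slopes were fitted in R 4.3.3 with limma 3.58.1 over all tested genes, with the genes of the measure left out and Benjamini-Hochberg adjustment. Scores are means of standardised log2 values. Where a measure had a gap of 25% of its range with at least 3 tumours on each side, the larger cluster was used. This left out tumours 7, 14 and 23 for Cdkn2a and 4 tumours for the chromosome of Dnmt3a. Correlations had 100000 two-sided permutations. The fit was tested on simulated data.

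The members and lists were chosen with earlier results of these data known. Besides all members, the text names the 3 genes with the highest r to each, and of each list the called genes with the 2 largest slopes each way along the S phase score and the 2 largest SDs. Fits were repeated with other probe set rules, filters, scalings and covariates and with tumours left out. Fits with the member's chromosome as a covariate and without tumours 24 and 30 were chosen after seeing the data.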

Additional observations from a re-analysis of the deposited data

How the results depend on the processing

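No called slope changed direction under any alternative run. Dnmt1 (slope 0.09 to 0.25) and Uhrf1 (0.19 to 0.39) were called along the S phase score in all 12 alternatives (highest limma adjusted p 0.0265 and 0.0269) and with each tumour left out in turn. Other counts moved, and the cause was not tested where tumours were not left out. Called along the S phase score were 4 genes, and 2 with ranks of the score, without the 11 tumours with salivary signal, without the 2 farthest tumours or without tumours 24 and 30. Along mitosis the count of 2 became 1 with arrays shifted by reference genes, with ranks or without tumours 24 and 30, and 0 with the non-lymphoma or S phase score as a covariate, without the 2 tumours richest in T cell signal or without the 2 farthest. Along Myc the count of 1 became 0 with ranks, without the T cell rich tumours or without the 2 farthest. Along the mature B cell score the count of 2 became 1 with a filter at the 75th percentile (7.67), without the T cell rich tumours or with the own chromosome as a covariate, 3 without the salivary tumours, and 0 without the 2 farthest or without tumours 24 and 30. Along the non-lymphoma score the count of 2 became 1 with the S phase covariate or without the T cell rich tumours, and 0 without the 2 farthest or without tumours 24 and 30. The filter at the 75th percentile kept no T cell gene in that score. Along the precursor B cell score the count of 0 became 1 without tumours 24 and 30, where Eed fell (-0.1, limma adjusted p = 0.0304). The 4 called pairs became 1 with ranks, and 0 without the salivary tumours, without the 2 farthest or without tumours 24 and 30. The count of 1 along the own chromosome became 3 with the filter at the 75th percentile, and 0 without the salivary tumours or without the 2 farthest.

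Leaving out each tumour in turn gave 0 to 1 genes called along Myc, 2 to 5 along S phase, 0 to 3 along mitosis, 0 to 2 along mature B, 1 to 3 along the non-lymphoma score, 0 to 0 along precursor B and Cdkn2a, 0 to 6 pairs, 1 to 1 along the own chromosome and 6 to 7 genes with an SD above the median. No paired analysis was possible because the labels give 1 group. With the dim Tet1 kept in the fit, its slope was 0.06 along mitosis (limma adjusted p = 0.0281) and -0.06 along the non-lymphoma score (adjusted p = 0.0228). These are slopes of its leading probe set, which had r = 0.56 with the mitosis score. Its other probe sets went the other way, with r of -0.11, -0.40 and -0.24.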
